A study of Homo sapiens with 6 samples.

Results

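The 10 genes described here encode Notch ligands (JAG1, JAG2, DLL4), Notch receptors (NOTCH1, NOTCH2, NOTCH3), a glycosyltransferase that modifies the receptors (LFNG) and transcription factors of the HES and HEY families (HES1, HEY1, HEYL). They were picked by gene symbol from a count table of 58735 genes, with earlier results of the same comparison known. Their differences between the groups are therefore given as descriptions, without p-values. Calls among them are counted, also over other ways of processing, but support nothing. Each of the 10 had a row of its own in the table. All 10 also passed the filter on low counts, which left 17215 genes, and each had at least 40 counts in every library of both groups.

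RNA was sequenced from LX-2, an immortalised line of human hepatic stellate cells that is labelled as wild type. The cells of all 6 libraries had received a small interfering RNA (siRNA), assigned by the sample labels to NSUN2, an RNA cytosine methyltransferase. For 3 libraries, called untreated below, the labels name no further treatment. The other 3 came from cells exposed to TGF-β1, the main fibrogenic cytokine of the liver, at 5 ng/ml during 24 h, starting 48 h after the siRNA. The labels describe replicates as biological without naming separate cultures, so any p-value measures the spread between these libraries only, and the hour at which untreated cells were harvested is not labelled. The design text of the series names both NAT10 and NSUN2 for the siRNA; the sample labels were followed. Cells without siRNA were not analysed here, and a single cell line limits the comparison to that line.

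Notch signalling passes between neighbouring cells. A ligand of the Jagged or Delta type on a cell binds a Notch receptor on the next, the receptor is cut by ADAM proteases and then by gamma-secretase, and its freed intracellular part enters the nucleus, where it joins the DNA-binding protein RBPJ and a Mastermind coactivator. HES and HEY genes are the best known direct targets, and the repressors they encode limit differentiation programmes. Fringe enzymes such as LFNG extend sugars on the receptor and so tune which ligands activate it. In the liver, Jagged 1 and NOTCH2 are known for bile duct development, where mutations in either cause Alagille syndrome, and Notch receptors are also present on stellate cells and other mesenchymal cells.

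The promoter-proximal sequences of JAG1, HES1 and HEYL are shown because JAG1 had the largest difference of the 10 genes, and because HES1, whose groups did not overlap, and HEYL, whose groups did, both carry the letters TGGGAA, the core that RBPJ is known to bind. Each run is the 250 bases upstream of the RefSeq start (build GRCh38.p14), written 5′ to 3′ on the strand of the gene, at chr20:10674000-10674249 (minus strand) for JAG1, chr3:194135898-194136147 (plus strand) for HES1 and chr1:39639644-39639893 (minus strand) for HEYL. Capitals mark TGGGAA or its reverse complement TTCCCA.
JAG1: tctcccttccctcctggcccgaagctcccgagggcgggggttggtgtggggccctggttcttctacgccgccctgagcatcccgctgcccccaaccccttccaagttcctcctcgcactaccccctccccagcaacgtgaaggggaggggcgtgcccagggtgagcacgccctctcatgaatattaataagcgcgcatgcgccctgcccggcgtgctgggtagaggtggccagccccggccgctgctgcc
HES1: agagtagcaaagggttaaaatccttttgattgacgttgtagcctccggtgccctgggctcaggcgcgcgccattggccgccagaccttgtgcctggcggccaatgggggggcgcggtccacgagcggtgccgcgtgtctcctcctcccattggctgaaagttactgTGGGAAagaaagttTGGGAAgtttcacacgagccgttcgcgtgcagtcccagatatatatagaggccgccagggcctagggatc
HEYL: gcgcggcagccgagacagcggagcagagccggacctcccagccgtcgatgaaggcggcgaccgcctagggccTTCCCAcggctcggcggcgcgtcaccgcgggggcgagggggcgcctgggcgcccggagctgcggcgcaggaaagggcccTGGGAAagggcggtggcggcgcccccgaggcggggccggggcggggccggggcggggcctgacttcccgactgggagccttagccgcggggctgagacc
The JAG1 window held no match to TGGGAA on either strand. The HES1 window held 2, beginning 84 and 70 bases before the start, and the HEYL window also held 2, beginning 178 (as TTCCCA) and 99 bases before it. The HEYL window lies within the span of the counted gene, which extends to base 39639945, so it is upstream of the RefSeq start only. Of 35116 RefSeq windows of this length, 20.8% held at least 1 match and 2.90% held 2 or more, so a single match is common, and a match describes letters only.

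Windows from RefSeq were matched for 9 of the 10 genes, with 2 start sites for LFNG. LFNG had 1 match to TGGGAA at its second start, and JAG2, DLL4, NOTCH1, NOTCH2, NOTCH3 and the first start of LFNG had none. The window of the second LFNG start (chr7:2517613-2517862) lies within the span of the counted gene. CAGAC, the letters known for SMAD binding, was present once each in the windows of HES1, DLL4 and the first start of LFNG, against 38.0% of all windows. CACGCG, a site that HES and HEY proteins are known to bind, was present in HES1 (2 matches), DLL4 (1) and JAG2 (1), against 9.72% of all windows. Neither CACGTG (6.34% of windows) nor TGANTCA, the AP-1 site (6.57% of windows), was found in any of them; all motifs were searched on both strands, and matches to different motifs could overlap.

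JAG1, which encodes the ligand Jagged 1, stood at 40.2, 40.0 and 41.9 normalised CPM (counts scaled to the library total, with TMM factors between libraries) in the untreated libraries and at 612, 559.5 and 567 CPM with TGF-β1. The 3 TGF-β1 libraries lay far above the 3 untreated ones, with replicate 1 the highest, and the groups did not come near each other. The mean went from 40.7 ± 1.03 to 579.7 ± 28.6 CPM (SD, n = 3), a 14.2-fold difference or 3.83 ± 0.04 (SE) on the log2 scale. These levels rest on 1174 to 1257 counts per untreated library and 14687 to 16036 per TGF-β1 library, for a gene of 9298 exonic bases on chromosome 20 (ENSG00000101384, 10637684 to 10673999, minus strand, hg38). In FPKM, the deposited values per kilobase of gene length, JAG1 had 4.21, 4.17 and 4.37 untreated and 64.0, 58.5 and 59.5 with TGF-β1. Ranked by FPKM among tested genes, it was at percentiles 54.0 to 54.8 in untreated libraries and at 96.4 to 96.8 with TGF-β1. In bulk RNA such as this, more cells that express a gene and more RNA per cell cannot be told apart.

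JAG2, the other Jagged ligand, did not separate the groups. It had 4.16, 6.40 and 5.46 CPM untreated and 4.45, 4.40 and 3.44 CPM with TGF-β1, so the lowest untreated library lay within the TGF-β1 range. The difference was -0.38 ± 0.18 on the log2 scale (ENSG00000184916, chromosome 14, 105140981 to 105168824, minus strand), and -0.54 with untreated replicate 1, the lowest of its group, left out. Each library held only 89 to 195 JAG2 counts, and the coefficient of variation was 21.1% untreated and 13.9% with TGF-β1, above the 7.92% and 9.61% that counting alone would give. Exons of AL512356.1, on the same strand, cover 7.33% of JAG2's exonic bases, and the sources used here do not give how reads there were assigned.

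DLL4, a Delta-type ligand best known from sprouting endothelium, was the single gene of the 10 with all TGF-β1 libraries below all untreated ones. It had 3.55, 4.33 and 3.18 CPM untreated and 2.71, 1.61 and 1.54 CPM with TGF-β1, from 40 to 132 counts per library. TGF-β1 replicate 1 stood closest to the untreated group. The difference was -0.92 ± 0.24 on the log2 scale, or 1.90-fold lower (ENSG00000128917, chromosome 15, 40929333 to 40939073, plus strand). Its coefficient of variation with TGF-β1, 33.6%, was the widest of the 10 genes in either group, against 14.0% from counting alone.

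**Figure D1:**
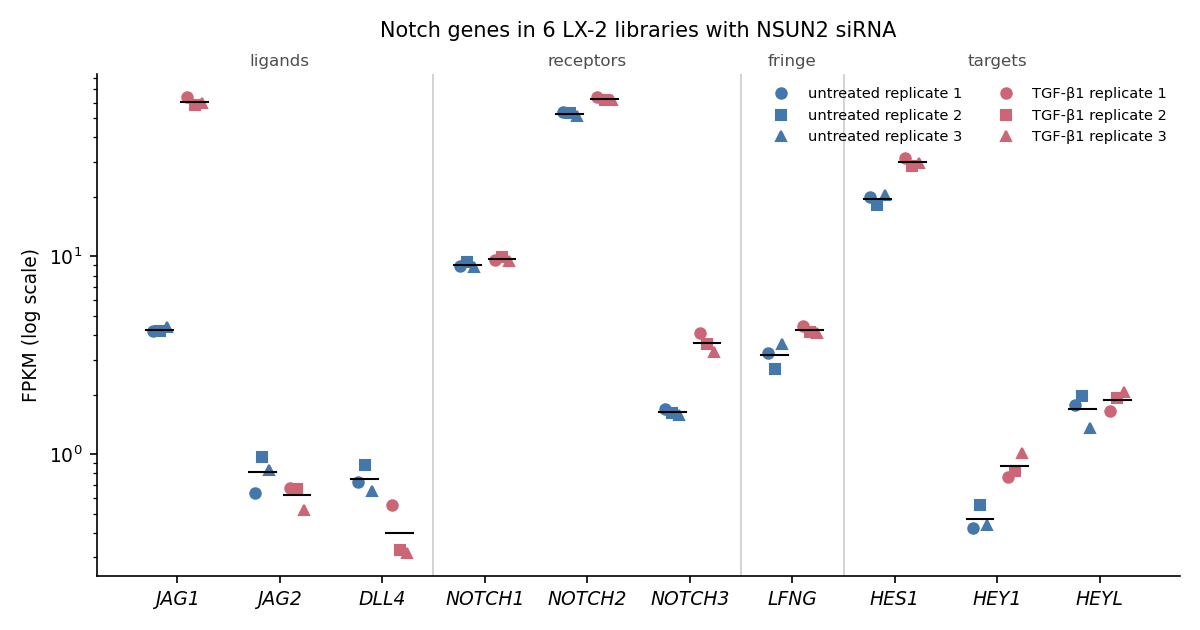
Level of each of the 10 Notch genes in every library, in deposited FPKM on a log10 axis, with a symbol for each replicate, blue for untreated and red for TGF-β1, and a bar at each group mean. JAG1 moved from 4.25 FPKM, below HES1 and NOTCH1, to 60.7 FPKM, beside NOTCH2, while JAG2 and HEYL overlap between the groups.

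NOTCH2 was by far the most abundant receptor. Its level was 926, 918 and 887 CPM untreated and 1104, 1071 and 1067 CPM with TGF-β1, and every TGF-β1 library exceeded every untreated one. The mean moved from 910.4 ± 20.9 to 1081 ± 20.2 CPM (SD, n = 3), 1.19-fold, or 0.25 ± 0.03 on the log2 scale (ENSG00000134250, chromosome 1, 119911553 to 120069626, minus strand). The size of this small difference depended on the scaling: it was 0.13 with library totals alone. NOTCH2 shares sequence with its partial copies, the NOTCH2NL genes, so reads could be split between them; NOTCH2NLA was listed at 2.90 ± 0.61 CPM untreated and 1.86 ± 0.21 CPM with TGF-β1.

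NOTCH3, the receptor known from vascular smooth muscle and pericytes, had the largest relative difference of the 3 receptors. It stood at 16.3, 15.7 and 15.2 CPM untreated and at 39.5, 34.7 and 31.6 CPM with TGF-β1. Replicate 1 was again the highest TGF-β1 library, and the groups lay well apart. The mean went from 15.7 ± 0.55 to 35.3 ± 3.96 CPM (SD, n = 3), 2.24-fold, or 1.16 ± 0.08 on the log2 scale (ENSG00000074181, chromosome 19, 15159038 to 15200981, minus strand).

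NOTCH1 barely differed. It had 95.2, 100.4 and 94.3 CPM untreated and 102, 106 and 100.6 CPM with TGF-β1, so the lowest TGF-β1 library exceeded the highest untreated one by a margin smaller than the spread within either group. The difference was 0.09 ± 0.04 on the log2 scale, and it was -0.03 with library totals alone (ENSG00000148400, chromosome 9, 136494433 to 136545786, minus strand).

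LFNG, the Lunatic Fringe enzyme, had 11.4, 9.52 and 12.7 CPM untreated and 15.6, 14.6 and 14.4 CPM with TGF-β1. The untreated libraries ranged more widely than the TGF-β1 libraries, and the highest of them stayed below the lowest TGF-β1 value. The difference was 1.33-fold, 0.41 ± 0.11 on the log2 scale (ENSG00000106003, chromosome 7, 2512529 to 2529177, plus strand).

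HES1, the most widely used readout of Notch activity, had 42.5, 38.7 and 43.7 CPM untreated and 67.0, 60.7 and 62.6 CPM with TGF-β1. No library of one group fell within the range of the other. Its mean moved from 41.6 ± 2.63 to 63.5 ± 3.20 CPM (SD, n = 3), 1.52-fold, or 0.61 ± 0.06 on the log2 scale (ENSG00000114315, chromosome 3, 194136145 to 194138732, plus strand). HES1 is known to be controlled by other pathways as well.

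HEY1, a repressor known from endocardium and vessels, was scarce, with 1.41, 1.84 and 1.46 CPM untreated and 2.55, 2.72 and 3.36 CPM with TGF-β1. The groups did not overlap, although each library held only 41 to 87 counts. The difference was 1.83-fold, 0.87 ± 0.25 on the log2 scale (ENSG00000164683, chromosome 8, 79764010 to 79767863, minus strand). HEYL, a relative of HEY1 found in smooth muscle, had 6.68, 7.42 and 5.10 CPM untreated and 6.19, 7.26 and 7.76 CPM with TGF-β1. Its groups overlapped, and the difference was 0.14 ± 0.15 on the log2 scale (ENSG00000163909, chromosome 1, 39624153 to 39639945, minus strand). Among the 3 targets, HES1 and HEY1 separated the groups and HEYL did not. The RefSeq windows of HES1 and HEYL held the same count of TGGGAA matches, but the HEYL window lies within the counted gene. The difference between the responses of these genes was not tested.

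**Figure D2:**
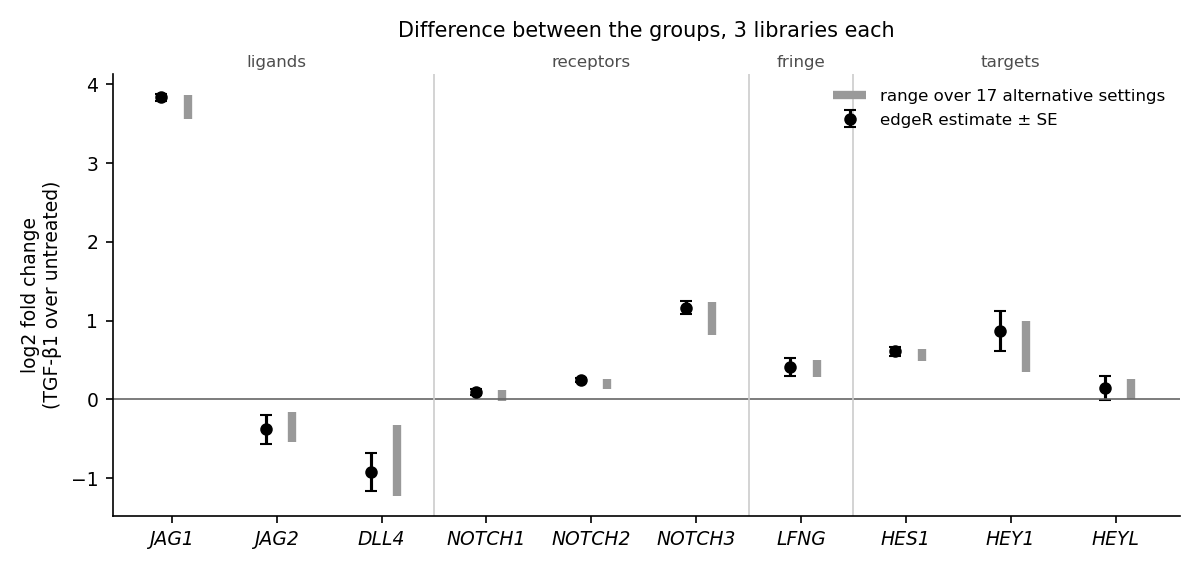
Difference of each of the 10 genes between TGF-β1 and untreated cells on the log2 scale, with its standard error and the range over 17 other ways of processing the data. JAG1 lies at 3.83, NOTCH3 at 1.16 and DLL4 at -0.92, while the interval of HEYL spans 0 and that of NOTCH1 lies close to it.

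Across the 10 genes, 7 had all TGF-β1 libraries above all untreated ones, 1 had all of them below, and JAG2 and HEYL overlapped. Among all 17215 tested genes, 24.1% lay entirely above and 23.3% entirely below. By edgeR's quasi-likelihood test across all tested genes, 6 of the 10 were called higher and DLL4 was called lower, where 20.2% of all tested genes were called higher and 18.7% lower. Nothing is read from these counts, since the genes were chosen with this contrast known. JAG2, NOTCH1 and HEYL were not called. The median log2 difference of the 10 was 0.33, against -0.01 over all tested genes, and JAG1 ranked 34 of 17215 counted from the highest log2 difference. TGF-β1 replicate 1 was the highest library of its group for 7 of the 10 genes. The share of all tested genes with that library highest was not computed, so nothing is read from this count either. The same library lay at one end of the second principal component of all tested genes, with a score of 33.1 against -6.29 and -27.4 for replicates 2 and 3.

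Levels can be compared between genes only per length, so the deposited FPKM values were used to order them. In untreated cells NOTCH2 led at 52.6 FPKM, followed by HES1 (19.6), NOTCH1 (9.03), JAG1 (4.25) and LFNG (3.18). HEYL (1.70) and NOTCH3 (1.63) overlapped in their libraries, as did JAG2 (0.81) and DLL4 (0.75), and HEY1 (0.47) was lowest. With TGF-β1, JAG1 (60.7 FPKM) stood beside NOTCH2 (62.5), and the libraries of the 2 genes overlapped. HES1 (29.9), NOTCH1 (9.66), LFNG (4.23), NOTCH3 (3.65), HEYL (1.88) and HEY1 (0.87) followed without overlap, and JAG2 (0.62) and DLL4 (0.40) overlapped at the bottom.

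The make-up of the ligand pool changed most. Summed over the 5 canonical ligands, FPKM went from 9.92 ± 0.20 untreated to 65.0 ± 3.03 with TGF-β1 (SD, n = 3), 6.55 times as much, and the sums of the 2 groups were far apart. JAG1 made up 41.7%, 41.9% and 45.0% of that sum in the untreated libraries and 93.5%, 93.2% and 93.2% with TGF-β1. DLL1 was next in untreated cells with 30.5 ± 1.20% of the sum, and it took 4.06 ± 0.26% with TGF-β1. The ratio of JAG1 to NOTCH2 in FPKM went from 0.0785, 0.0788 and 0.0854 to 1.00, 0.944 and 0.961. Because JAG1 dominates the sum, the shares of the other ligands were lower whether or not their own levels differed.

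Receptors kept their order. Their summed FPKM was 63.4 ± 1.46 untreated and 76.1 ± 1.44 with TGF-β1 (SD, n = 3), of which NOTCH2 held 83.0 ± 0.30% and 82.2 ± 0.38%. NOTCH3 took 2.57 ± 0.05% of the sum untreated and 4.79 ± 0.44% with TGF-β1, and the ratio of NOTCH2 to NOTCH3 went from 32.4 ± 0.54 to 17.2 ± 1.62. Among the fringe genes, LFNG held 30.9 ± 3.11% and 40.4 ± 2.46% of summed FPKM, and RFNG most of the rest. Summed FPKM of the HES and HEY genes HES1, HES4, HEY1, HEY2 and HEYL was 28.9 ± 1.67 untreated and 47.1 ± 2.73 with TGF-β1, and HES1 accounted for 67.7 ± 0.49% and 63.6 ± 1.02% of it.

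**Figure D3:**
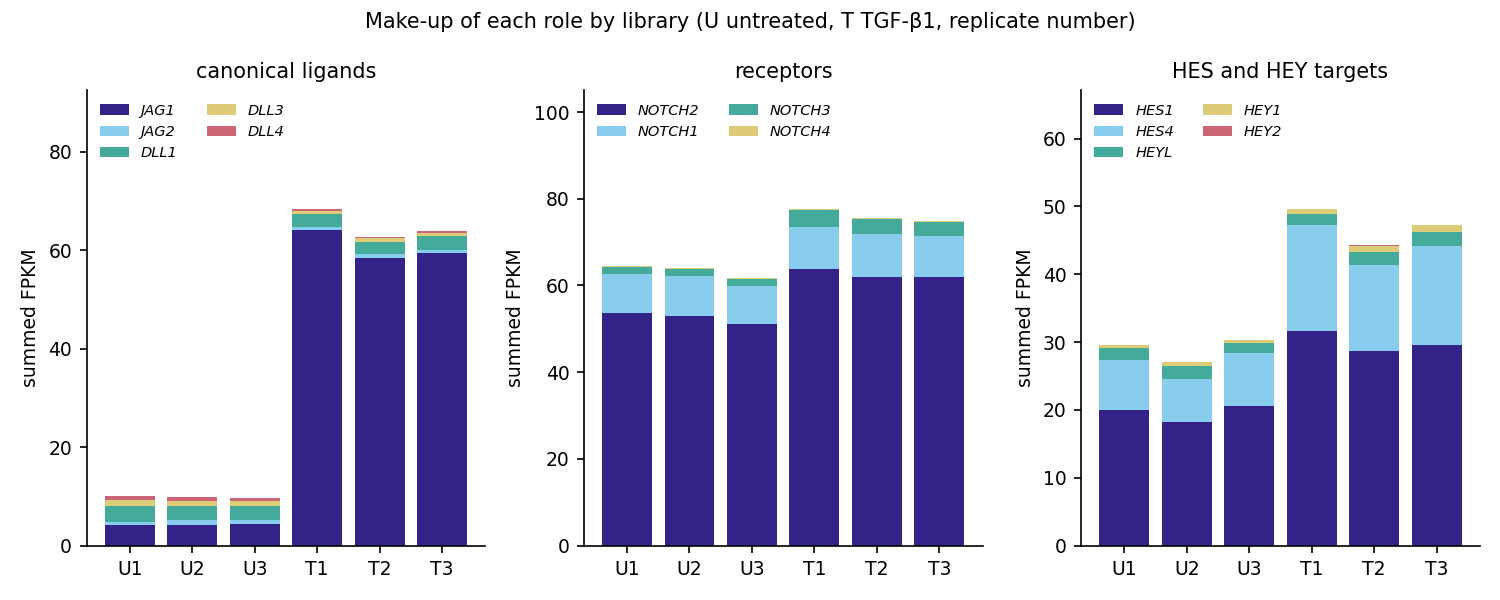
Stacked bars of FPKM summed over the canonical ligands, the receptors and the HES and HEY targets in each of the 6 libraries (U untreated, T TGF-β1), coloured by gene. Ligand sums are 9.92 ± 0.20 untreated and 65.0 ± 3.03 with TGF-β1 (SD, n = 3), nearly all of the latter JAG1, while NOTCH2 is the main receptor in both groups.

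Outside these 10 genes, 83 further genes of the Notch pathway were listed by role; 81 were found in the table and 74 passed the filter on low counts. These lists were drawn up with earlier results of these data known. Calls and p-values among them are therefore descriptions, and nothing is read from their number. By edgeR's quasi-likelihood test, adjusted over all 17215 genes, 28 of the 74 rose, 18 fell and 28 did not pass. That is 62.2% called in either direction, against 38.9% over all tested genes (20.2% called higher and 18.7% lower). Of the 46 called genes 31 differed by less than 0.5 on the log2 scale, as did 4195 of the 6697 called genes over all tested genes. The median absolute difference was 0.23 over the 74 and 0.22 over all tested genes, and the signed median over the 74 was 0.07. The split also moved with the scaling. With library totals alone, which shift the median of all genes by -0.12, 18 of the 74 were called higher and 29 lower. Genes named below because a count was 5 or fewer, outside the rule for named genes, were chosen after their values were seen.

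Of the 2 other canonical ligands, DLL3 fell, by 0.66 ± 0.24 on the log2 scale, from 2.91 ± 0.53 to 1.84 ± 0.28 CPM (edgeR adjusted p = 0.0293). DLL3 was no longer called once untreated replicate 1 was left out (adjusted p = 0.18), nor without TGF-β1 replicate 1 (0.112) or replicate 3 (0.0547). DLL1 had 10.1 ± 0.55 CPM untreated and 8.74 ± 0.39 with TGF-β1, a difference of -0.20 ± 0.12 that did not pass (adjusted p = 0.195). All 5 tested non-canonical ligands were called. DNER, a transmembrane protein with Delta-like repeats, rose from 114.7 ± 3.50 to 171 ± 8.56 CPM, and the microfibril protein MFAP2 rose from 0.21 ± 0.097 to 0.87 ± 0.24 CPM (adjusted p = 0.00212). NOV, a secreted CCN family protein, fell by 1.05 ± 0.16 on the log2 scale (adjusted p = 1.01e-06), and DLK2 and EGFL7 fell by 0.45 ± 0.10 and 0.28 ± 0.09. EGFL7 was not called without untreated replicate 3 (adjusted p = 0.065) or TGF-β1 replicate 2 (0.0731).

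NOTCH4, the receptor known from endothelium, rose from a low level, with 1.44, 0.89 and 1.71 CPM untreated and 2.47, 2.27 and 3.55 CPM with TGF-β1. The groups did not overlap, and the difference was 1.04 ± 0.28 on the log2 scale (edgeR adjusted p = 0.00259). NOTCH2NLA fell by 0.64 ± 0.25 (adjusted p = 0.0352), a call lost without untreated replicate 1 (0.153) or 3 (0.116) and without TGF-β1 replicate 2 (0.125) or 3 (0.0662). Its near-identical copies make this value uncertain. Of 7 genes for ligand ubiquitination and endocytosis, 2 were called, both lower: NEURL1B, a ubiquitin ligase of ligands, fell by 0.50 ± 0.05 and EPN2 by 0.24 ± 0.06. MIB1, the ligase that Jagged and Delta ligands chiefly use, had 122.8 ± 4.74 and 121.9 ± 3.48 CPM.

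Of 10 receptor glycosylation genes 6 rose (KDELC1, XXYLT1, POFUT1, EOGT, GXYLT1, GXYLT2) and 1, KDELC2, fell. Of the 6 that rose, only KDELC1 stayed called with library totals alone. With that scaling POFUT1 (edgeR adjusted p = 0.608), XXYLT1 (0.178), EOGT (0.675), GXYLT1 (0.972) and GXYLT2 (0.116) were not called. With untreated replicate 3 left out, EOGT (edgeR adjusted p = 0.0801), GXYLT1 (0.143) and GXYLT2 (0.197) were no longer called. EOGT and GXYLT1 were also lost without untreated replicate 1 (0.143 and 0.0507) or TGF-β1 replicate 3 (0.241 and 0.205). GXYLT2, whose groups overlapped, was also lost without untreated replicate 2 (0.105) or TGF-β1 replicate 1 (0.307). The fringe genes of this list were not among the called ones: RFNG had 27.8 ± 1.24 CPM untreated and 24.4 ± 3.34 with TGF-β1 (edgeR adjusted p = 0.071), and MFNG stayed under 1 CPM in both groups. Exons of GPS1 on the opposite strand cover 21.6% of RFNG's exonic bases, and the sources used here do not give whether counting used strand. Of 9 cleavage genes, FURIN and ADAM10 rose, and APH1B, PSEN2 and NCSTN fell. FURIN, the convertase that cuts receptors during maturation, had 197, 199.6 and 203 CPM untreated and 439.8, 419 and 427 CPM with TGF-β1, a difference of 1.10 ± 0.03 on the log2 scale (adjusted p = 8.73e-29). The groups were far apart relative to their spread. ADAM10, the main protease of ligand-activated receptors, rose by only 0.17 ± 0.03 (adjusted p = 8.89e-05), a call lost with library totals alone. APH1B, a gamma-secretase subunit, fell by 0.66 ± 0.08 (adjusted p = 2.28e-09). NCSTN, another subunit gene, fell by 0.22 ± 0.04. PSEN2 was not called without untreated replicate 1 or 3, or without TGF-β1 replicate 1 or 3 (adjusted p = 0.0882 to 0.144). ADAM17, a related protease, had a difference of -0.03 ± 0.06 (adjusted p = 0.751).

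RBPJ, the DNA-binding protein on which canonical Notch transcription depends, fell. Its level was 103, 103 and 98.4 CPM untreated and 81.8, 73.7 and 70.9 CPM with TGF-β1. Every TGF-β1 library lay below every untreated one, and the difference was -0.43 ± 0.05 on the log2 scale (edgeR adjusted p = 1.02e-09), called in all 17 alternatives. Of the 9 genes of the nuclear complex and its coactivators, 3 rose (MAML2, MAML1, EP300) and 3 fell (KAT2B, RBPJ, MAML3). MAML2, a Mastermind coactivator, rose by 0.60 ± 0.07 (adjusted p = 1.03e-09), and the acetyltransferase KAT2B fell by 0.66 ± 0.12 (adjusted p = 3.26e-05). MAML1 differed by 0.16 ± 0.05 (adjusted p = 0.00734, and 0.0871 without untreated replicate 3). EP300 was not called without untreated replicate 3 (0.0715) or TGF-β1 replicate 1 (0.0804). With library totals alone neither MAML1 (edgeR adjusted p = 0.538) nor EP300 (0.898) was called. MAML3 was not called without any 1 of the untreated libraries or without TGF-β1 replicate 1 or 2 (adjusted p = 0.0652 to 0.334).

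Among 14 corepressor genes 8 rose and 1 fell. HDAC1, 1 of the 8 that rose, was not called with library totals alone (edgeR adjusted p = 0.264). With that scaling TLE1 (edgeR adjusted p = 0.0012), TLE4 (0.000987) and CTBP1 (0.019), uncalled in the main fit, were called lower. TLE3, a Groucho-type corepressor recruited by HES proteins, rose from 36.1 ± 0.46 to 56.3 ± 1.73 CPM, or 0.64 ± 0.06 on the log2 scale (edgeR adjusted p = 3.41e-12). The histone demethylase KDM1A rose by 0.60 ± 0.04 and SPEN, which binds RBPJ directly, by 0.50 ± 0.04. NCOR1 fell by 0.10 ± 0.03 and was not called with untreated replicate 1 left out (adjusted p = 0.0717), nor without TGF-β1 replicate 1 (0.0834) or 3 (0.0567). Of 13 negative regulators 5 rose (DTX4, NUMBL, CDK8, ITCH, FBXW7) and 3 fell (DTX3L, DTX2, WWP2). DTX4, a Deltex ubiquitin ligase, rose by 0.56 ± 0.12 (adjusted p = 1.63e-04), while NUMB, an endocytic inhibitor of Notch, had 113.9 ± 2.59 and 105.7 ± 7.24 CPM (adjusted p = 0.0522). Leaving out single libraries ended the calls of FBXW7 (untreated replicate 1, adjusted p = 0.0555), DTX2 (untreated or TGF-β1 replicate 3, 0.0641 and 0.0566) and WWP2 (untreated replicate 2 or any TGF-β1 library, 0.051 to 0.132). With library totals alone FBXW7 was also not called (edgeR adjusted p = 0.155). NRARP, a feedback inhibitor and Notch target, stayed under 1 CPM in both groups (adjusted p = 0.497).

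HES4 was the 1 gene called of 3 other tested HES genes. It had 8.32, 7.35 and 9.14 CPM untreated and 18.03, 14.7 and 16.6 CPM with TGF-β1, so the groups lay well apart. Its difference was 0.99 ± 0.12 on the log2 scale (edgeR adjusted p = 1.57e-09). The 250-base RefSeq window of HES4 held 1 match to TGGGAA, where 20.8% of all such windows held at least 1. That window (chr1:1000098-1000347) partly overlaps the counted gene, which extends to base 1000172. A link between the match and the difference was not tested. HES6 had 14.0 ± 0.28 and 14.9 ± 1.29 CPM and HES7 about 1 CPM in both groups, and neither passed. HES5 (6 counts in all untreated libraries and 3 in all TGF-β1 libraries) and HEY2 (2 and 13 counts) were too scarce to test.

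**Figure D4:**
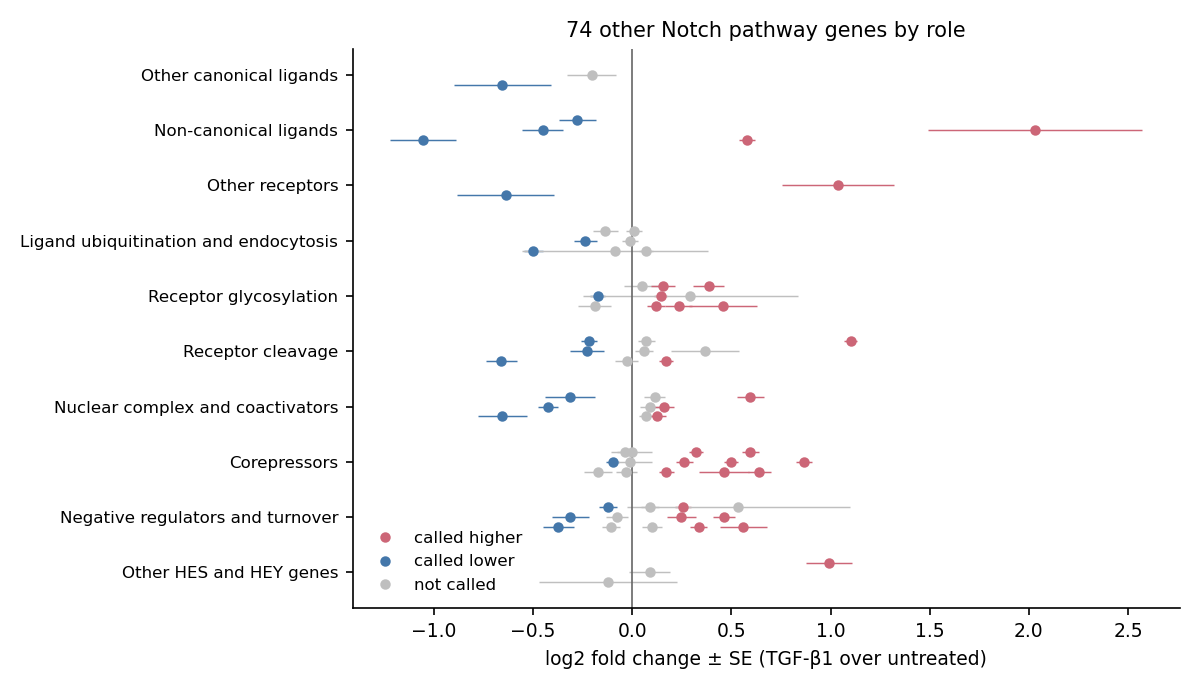
Log2 difference between TGF-β1 and untreated cells, with its standard error, for the 74 other tested Notch pathway genes, grouped by role and coloured as called higher, called lower or not called. Most points lie between -0.5 and 0.5; MFAP2 (2.03 ± 0.54), FURIN, NOTCH4 and HES4 lie near or beyond 1 on the higher side, and NOV (-1.05) on the lower.

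Genes with the most similar pattern were found by the distance between 6 log2 CPM values centred on each gene's mean, over 6 libraries and 10782 genes of at least 5 CPM. Nearest to JAG1 were UNC5B (distance 0.51, 1.03 ± 0.14 to 13.1 ± 2.26 CPM), CGB8 (0.62), LPAR5 (0.64), SLC46A3 (0.73, 16.7 ± 1.82 to 162 ± 9.83 CPM) and TNFAIP6 (0.79). CGB8 belongs to a family of near-identical copies, so its counts are uncertain. Nearest to HES1 were TEAD3 (0.06), LUZP1 (0.07) and KCTD15 (0.07), at distances much smaller than those around JAG1. For HEY1 they were RCL1 (0.21), the antisense gene NECTIN3-AS1 (0.29) and ZNF488 (0.31), and for HEYL they were MRRF (0.13), TMEM64 (0.14) and POU6F1 (0.15). These distances are descriptions over libraries that share 2 groups, so any gene with a like difference is close.

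Totals were 25828504 to 30034762 counts per library, and log2 CPM correlated at 0.988 to 0.990 within groups and 0.971 to 0.974 between them. In each library more genes had exactly 2 counts (2504 to 2708) than exactly 1 (1403 to 1598), so counts do not behave as independent single reads and the counting errors given above are lower limits; the cause was not tested. NSUN2 itself was at 82.9 ± 1.47 CPM untreated and 100.6 ± 3.07 with TGF-β1, and its knockdown cannot be computed without cells that lack the siRNA. As a check of the treatment labels, SMAD7, a direct TGF-β target, was at 16.6 ± 2.25 CPM untreated and 87.7 ± 5.81 CPM with TGF-β1.

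Markers of the labelled cell type were present in part. Of 15 stellate cell markers, 9 had a mean of at least 1 CPM, with a summed level of 2557 to 2606 CPM untreated and 5066 to 5711 CPM with TGF-β1, set mainly by COL1A1 and VIM. Not all of these markers were higher with TGF-β1: ACTA2 was at 6.71 to 7.78 CPM untreated and 3.803 to 4.73 with TGF-β1, HAND2 at 5.73 to 6.86 and 3.52 to 4.13, and GFAP at 1.81 to 2.21 and 0.93 to 1.46. The retinoid gene LRAT and the matrix gene DCN had 0 counts in every library, which allows up to 0.116 CPM in the smallest, and DES stayed at or below 0.192 CPM. Markers of cholangiocytes, the cells of the bile ducts, summed to 71.1 to 72.7 CPM untreated and 56.9 to 58.7 CPM with TGF-β1, of which SOX9 was most. SOX9 was lower with TGF-β1 (67.9 to 69.8 against 51.4 to 54.5 CPM) and KRT7 higher (2.40 to 3.25 against 3.87 to 5.06 CPM); 2 of 6 reached 1 CPM, CFTR was at 0, and KRT19 and EPCAM were below 0.3 CPM. Endothelial markers, of interest for DLL4, NOTCH4 and HEY1, summed to 19.7 to 25.4 CPM untreated and 35.8 to 39.8 CPM with TGF-β1. Only 1 of 6, TEK, reached a mean of 1 CPM and made up most of the sum. TEK was at most 22.9 CPM untreated and 34.3 to 37.8 CPM with TGF-β1, so the higher sum was mainly TEK. PECAM1 (0.328 to 0.999 CPM untreated, 0.593 to 1.29 with TGF-β1) overlapped between the groups. VWF (0.678 to 1.67 CPM untreated, 0.404 to 0.837 with TGF-β1) also overlapped, with its lowest and highest values lower with TGF-β1. CDH5, KDR and ERG stayed at or below 0.352 CPM. Hepatocyte markers summed to at most 0.162 CPM, with 0 of 6 at 1 CPM and TTR and CYP3A4 at 0. Leukocyte markers summed to 12.5 to 15.5 CPM untreated and 16.0 to 18.7 CPM with TGF-β1, with 2 of 6 (CD14 and CSF1R) at 1 CPM and PTPRC at or below 0.128 CPM. These 2 went opposite ways, CD14 from 7.74 to 9.88 CPM untreated to 2.36 to 5.62 CPM with TGF-β1 and CSF1R from 3.36 to 5.28 CPM to 12.2 to 12.4 CPM. The part of these marker differences in the Notch gene values was not tested.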

How the data were processed

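RNA-seq counts were compared between 3 untreated and 3 TGF-β1 libraries of LX-2 cells, all with NSUN2 siRNA. The deposited count table holds unnormalised whole-number counts per gene. The deposited FPKM table holds the authors' values per kilobase and library size, and they equal those counts divided by gene length and 1 library size (1.07 to 1.08 times the total in untreated and 0.984 to 0.987 times in TGF-β1 libraries). Reads were handled by fastp and HISAT2 2.2.1 on build hg38, per the submitters' processing notes; the sources used here do not give the counting tool, strand use or annotation. All 58735 identifiers matched GENCODE 29. Both tables also hold per-sample columns, 6 in each, that matched no sample here and were left out.

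After filterByExpr (17215 of 33743 genes with a count), counts were fitted with edgeR 4.0.16 (TMM, robust quasi-likelihood test, two-sided, Benjamini-Hochberg adjustment over all tested genes, adjusted p under 0.05) in R 4.3.3; group was the sole term, leaving 4 residual degrees of freedom, and the common biological coefficient of variation was 5.62%. Standard errors are the log2 difference over the root of the F statistic. The 10 genes, the pathway and marker lists and the tests were chosen with earlier results of these data known. Named pathway genes were the 15 called genes with the largest change among those of at least 1 CPM, 15 listed genes whatever their result, and those most like JAG1 (5) and HES1, HEY1 and HEYL (3 each) in pattern. The scripts were tested on simulated data. Alternatives were other scaling factors, filters, DESeq2 1.42.0, limma 3.58.1 (voom, and log2 FPKM with a pseudocount of 1 or 0.1), the replicate number as a block, and each library left out in turn. Promoter windows came from a RefSeq table of GRCh38.p14. Some genes that the rule names are not reported here.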

Additional observations from a re-analysis of the deposited data

How the results depend on the processing

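Over 17 alternatives, no log2 difference of the 10 genes that was called changed direction. JAG1 ranged from 3.55 to 3.86, NOTCH3 from 0.82 to 1.24, HES1 from 0.49 to 0.64, HEY1 from 0.34 to 1.00, LFNG from 0.29 to 0.50 and NOTCH2 from 0.13 to 0.26. DLL4 ranged from -1.22 to -0.33 and was not called by limma on FPKM values, at -0.33 ± 0.12 (pseudocount 1) and -0.79 ± 0.30 (pseudocount 0.1); the cause was not tested. JAG2 (-0.54 to -0.15) was called lower with library totals alone and when untreated replicate 1 was left out. NOTCH1 (-0.03 to 0.12) and HEYL (0.00 to 0.26) were called in 0 of 17. Nothing is read from these calls either, since the 10 genes were chosen with this contrast known.

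With library totals alone, 2019 of all tested genes were higher and 5354 lower, against 3471 and 3226, and 18 other pathway genes were higher and 29 lower, against 28 and 18. Limma on log2 FPKM was fitted to genes with a mean of at least 0.5 FPKM, which kept 68 pathway genes. It called 22 of them higher and 12 lower with either pseudocount. MFAP2, NOTCH4 and NOTCH2NLA fell below that level and were not tested there. DESeq2, fitted to 78 pathway genes, called 25 higher and 13 lower. The calls lost with DESeq2 were those of DLL3, NOTCH2NLA, PSEN2, MAML3, WWP2, EOGT, GXYLT1 and GXYLT2 (Wald test, adjusted p = 0.0587 to 0.12). Leaving out each library in turn gave 3089 to 3366 higher and 2850 to 3009 lower genes in all, and 23 to 30 higher and 13 to 18 lower pathway genes. Of the 46 called pathway genes, 28 were called in every alternative that tested them, and 16 uncalled ones were called in at least 1.

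Replicates with the same number did not deviate together (correlations of -0.00492, 0.0111 and -0.00909). The labels do not say what the number marks, so whether same-numbered libraries shared a culture or day is unknown. With the replicate block, 3431 genes were higher and 3182 lower, and 28 and 19 pathway genes.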
